A study of Homo sapiens with 4 samples.

Results

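The SLC25 mitochondrial carriers were followed in KGN cells, a human line from an ovarian granulosa cell tumour, after loss of the transcriptional co-activators YAP and TAZ and after a cyclic AMP stimulus. The members were the genes whose probe sets carry a single symbol of the form SLC25A plus a number in the platform's annotation. There were 45 of them among 19775 genes, read by 96 probe sets, and of several probe sets of a gene the one with the highest mean log2 value on the 4 arrays stood for it. SLC25A6 and SLC25A52 were not analysed here. Choosing the probe sets used the levels on all 4 arrays, so the levels below are a description.

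Each of 4 groups held 1 array (Affymetrix HG-U133 Plus 2.0), hybridised with biotin-labelled cRNA made from total RNA. The siYT+8Br-cAMP cells received 5 nM of an siRNA to YAP together with 5 nM of one to TAZ. After 48 h their medium was changed to one with 0.5 mM 8Br-cAMP, an analogue of cyclic AMP that enters cells, for 24 h. The siYT cells received the same siRNAs and medium without 8Br-cAMP. The siNC+8Br-cAMP cells received a control siRNA at 10 nM and then 8Br-cAMP in the same way, and the siNC cells received the control siRNA and no 8Br-cAMP. All groups are the same cell line, which is a tumour line and not primary granulosa cells. With 1 array per group no difference has a replicate check, so sizes are given without p-values, and in bulk RNA fewer transcripts per cell cannot be told apart from a change in the mix of cells.

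The inner mitochondrial membrane is closed to most metabolites, and SLC25 proteins are the carriers that let nucleotides, phosphate, carboxylates, amino acids and cofactors cross it. Most work as exchangers, taking one substrate in for another out, and thereby tie ATP export, the malate-aspartate shuttle, citrate export, iron supply and one-carbon metabolism to the cytosol. In steroid-making cells mitochondria also carry out the first step of steroid synthesis, the side-chain cleavage of cholesterol, which draws on mitochondrial NADPH.

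Values are probe set intensities on a linear scale. Values below 62.6, the median of the whole table, were set to that floor before log2 was taken, and where 1 of the arrays compared lay at the floor the fold is a lower bound, written as at least that fold. Of the 45 carriers, 38 passed the floor on 1 array or more and entered the comparisons, and 33 passed it on all 4. The 7 others, SLC25A2, SLC25A18, SLC25A21, SLC25A31, SLC25A41, SLC25A47 and SLC25A53, were below it on every array. A level of 1 gene is not set against that of another, because probe sets differ in how they bind. The spread of a log2 difference between probe sets of 1 gene served as the yardstick of measurement error. Its SD over 7501 probe sets was 0.39 for siYT minus siNC, 0.54 for siYT+8Br-cAMP minus siNC+8Br-cAMP, 0.37 for siNC+8Br-cAMP minus siNC, 0.53 for siYT+8Br-cAMP minus siYT and 0.60 for the difference of differences. These probe sets were above 4 times the floor on every array, so the SD does not cover values below that level. It also leaves out variation between cultures.

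The knockdown was visible in both targets. YAP1 read 1412 in siYT+8Br-cAMP and 1295 in siYT, against 4772 in siNC+8Br-cAMP and 4915 in siNC. WWTR1, which encodes TAZ, read 1154 and 1028 in the same knockdown arrays, against 7048 and 5366 in the control arrays. The ratio of 3' to 5' ACTB signal was 1.35 on the siYT+8Br-cAMP array and 1.07 to 1.14 on the other 3. The same ratio for GAPDH was 1.13 on the siYT+8Br-cAMP array and 0.89 to 0.96 on the other 3. The part of these ratios in the results on that array was not tested. Of 7 granulosa markers with a probe set, 5 were above the floor, among them FOXL2 at 659 to 1765, while FSHR and NR5A1 were below it on every array. Among markers of other cell types, CYP17A1 (theca), ZP2 (oocyte) and CDH5 (endothelium) were below the floor on every array. The theca marker INSL3 read 268 in siYT+8Br-cAMP and 213 in siYT, against 69.3 in siNC+8Br-cAMP and 156 in siNC. The endothelial marker PECAM1 read 233 and 185 in the knockdown arrays with and without 8Br-cAMP, against 162 and 144 in the control arrays. GDF9 (oocyte), PTPRC and CD3E (immune) each passed the floor on 1 array, with 85.2, 80.0 and 63.6. The part of these markers in the results was not tested.

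Most carriers stayed within 2-fold in every comparison, and 1 gene, SLC25A24, was far lower in all of them. Its transcript, for a calcium-regulated exchanger of ATP-magnesium for phosphate, read 181 in siYT+8Br-cAMP and 2224 in siYT, against 889 in siNC+8Br-cAMP and 7210 in siNC. The intensity was therefore lowest where knockdown and 8Br-cAMP were combined and highest where neither was given. Under knockdown it was 4.91-fold lower in the presence of 8Br-cAMP and 3.24-fold lower in its absence, log2 differences of -2.29 and -1.70. With 8Br-cAMP it was 8.11-fold lower under control siRNA and 12.3-fold lower after knockdown, log2 differences of -3.02 and -3.62. Both ranked 4 from the lowest among the 14427 genes compared. The array with both treatments was 39.8-fold below siNC, and the difference of differences was -0.60, the size of the probe set SD of 0.60. The reading of 181 is below the level from which that SD was taken. These values rest on 1 probe set, since the other SLC25A24 probe set read at most 64.3 and lay at or next to the floor on every array.

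Promoters are shown for SLC25A24, whose transcript changed most, and for its paralog SLC25A25. Of 3 SLC25A25 promoters, the one shown holds a full cyclic AMP response element and the other 2 hold none of the motifs searched. Each is the 250 bases upstream of a RefSeq transcript start (GRCh38.p14), written 5′ to 3′ on the gene's strand. Capitals mark matches to TGACG or its reverse complement CGTCA, the cyclic AMP response element (CRE) in its short form, to the full palindrome TGACGTCA, which contains both short forms, and to GGAATG or its reverse complement CATTCC, the core bound by TEAD factors, the DNA-binding partners of YAP and TAZ.
SLC25A24 upstream start, chr1:108200344-108200593, minus strand: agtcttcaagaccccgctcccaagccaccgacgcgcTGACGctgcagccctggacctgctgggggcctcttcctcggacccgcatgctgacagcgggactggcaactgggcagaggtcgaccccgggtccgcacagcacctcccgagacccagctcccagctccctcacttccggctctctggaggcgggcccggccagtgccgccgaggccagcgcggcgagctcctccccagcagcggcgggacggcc
SLC25A24 downstream start, chr1:108192836-108193085, minus strand: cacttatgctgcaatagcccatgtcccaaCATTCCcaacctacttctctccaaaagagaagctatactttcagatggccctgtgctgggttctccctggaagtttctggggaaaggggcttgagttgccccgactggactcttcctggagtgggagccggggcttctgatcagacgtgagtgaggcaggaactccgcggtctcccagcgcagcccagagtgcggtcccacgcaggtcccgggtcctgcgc
SLC25A25, chr9:128098257-128098506, plus strand: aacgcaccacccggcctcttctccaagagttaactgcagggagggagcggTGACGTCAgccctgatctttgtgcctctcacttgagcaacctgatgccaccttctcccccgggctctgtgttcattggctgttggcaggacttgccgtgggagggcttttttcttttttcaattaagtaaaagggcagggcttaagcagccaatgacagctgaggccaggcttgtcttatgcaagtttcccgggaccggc

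For 38 of the 45 carriers the RefSeq table held 48 promoters, against 35116 promoters in all. The full CRE was in 3 of the 48 (6.25%), those of SLC25A25, SLC25A33 and SLC25A36, against 1.65% of all promoters. The short form was in 14 (29.2%), against 21.2% of all, and the TEAD core was in 3 (6.25%), against 11.9% of all. The carriers with a full CRE did not share a response to 8Br-cAMP: the log2 differences with control siRNA and after knockdown were 0.36 and 1.02 for SLC25A25, -0.68 and 0.04 for SLC25A33, and -0.18 and -0.17 for SLC25A36. The carriers with a TEAD core also differed under knockdown: without and with 8Br-cAMP the log2 differences were -1.70 and -2.29 for SLC25A24, 0.93 and 0.94 for SLC25A23, and 0.23 and 1.20 for SLC25A28. A match describes these letters and is not a measured binding site.

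**Figure D1:**
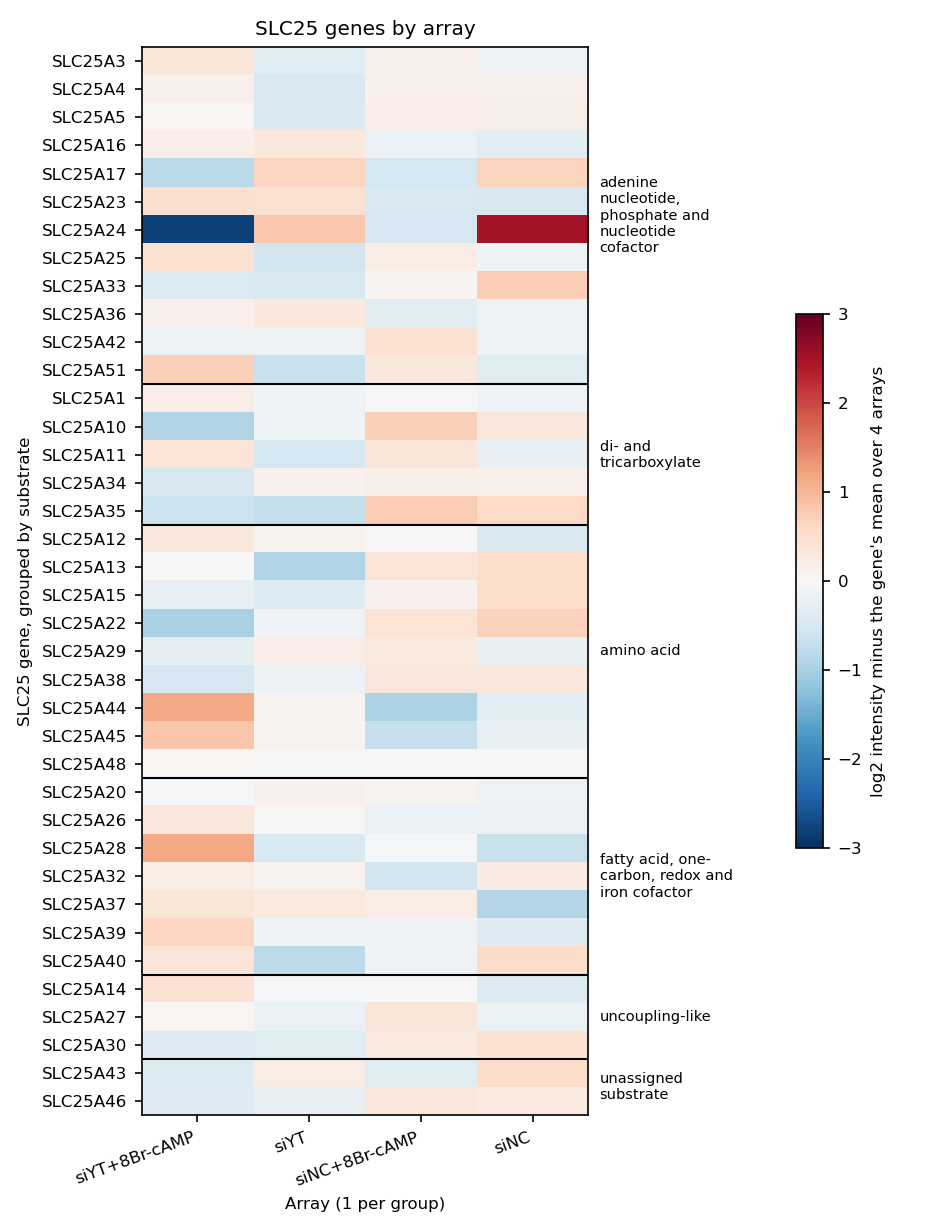
Log2 intensity of each of the 38 SLC25 genes compared, minus that gene's mean over the 4 arrays (colour), with 1 column per array and genes grouped by substrate. SLC25A24 has the deepest colours, with 181 in siYT+8Br-cAMP and 7210 in siNC, while most rows stay pale.

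Knockdown without 8Br-cAMP (siYT minus siNC) asked which carriers depend on YAP and TAZ. In this comparison 6 of the 38 carriers were at 2-fold in either direction, beside 13.3% of all genes. Of them 5 were at least 2-fold lower, beside 6.05% of all genes, and 1 was at least 2-fold higher, beside 7.30% of all genes. The lower ones were SLC25A24, SLC25A13, SLC25A35, SLC25A40 and SLC25A33, and the higher one was SLC25A37. The median log2 difference over the 38 was -0.09, against 0 over all genes. SLC25A33 at -1.22 was the nearest inside the 2-fold line on the lower side and SLC25A15 at -0.93 the nearest outside. On the higher side these were SLC25A37 at 1.18 and SLC25A23 at 0.93.

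With 8Br-cAMP present (siYT+8Br-cAMP minus siNC+8Br-cAMP), 7 of the 38 were at 2-fold in either direction, beside 16.2% of all genes. Of them 4 were at least 2-fold lower, beside 9.48% of all genes, and 3 were at least 2-fold higher, beside 6.74%. The lower ones were SLC25A24, SLC25A10, SLC25A35 and SLC25A22, and the higher ones were SLC25A44, SLC25A45 and SLC25A28. The median was 0.03, against 0 over all genes. SLC25A22 at -1.39 and SLC25A28 at 1.20 lay just inside the 2-fold lines, and SLC25A38 at -0.84 and SLC25A23 at 0.94 just outside. In both knockdown comparisons, which share no array, SLC25A24 and SLC25A35 were at least 2-fold lower, 2 of 38 beside 2.81% of all genes, and 0 were at least 2-fold higher, beside 2.38%. By any amount 14 were lower in both, beside 28.5% of all genes, 11 were higher in both, beside 28.5%, and 10 went opposite ways, beside 28.7%.

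**Figure D2:**
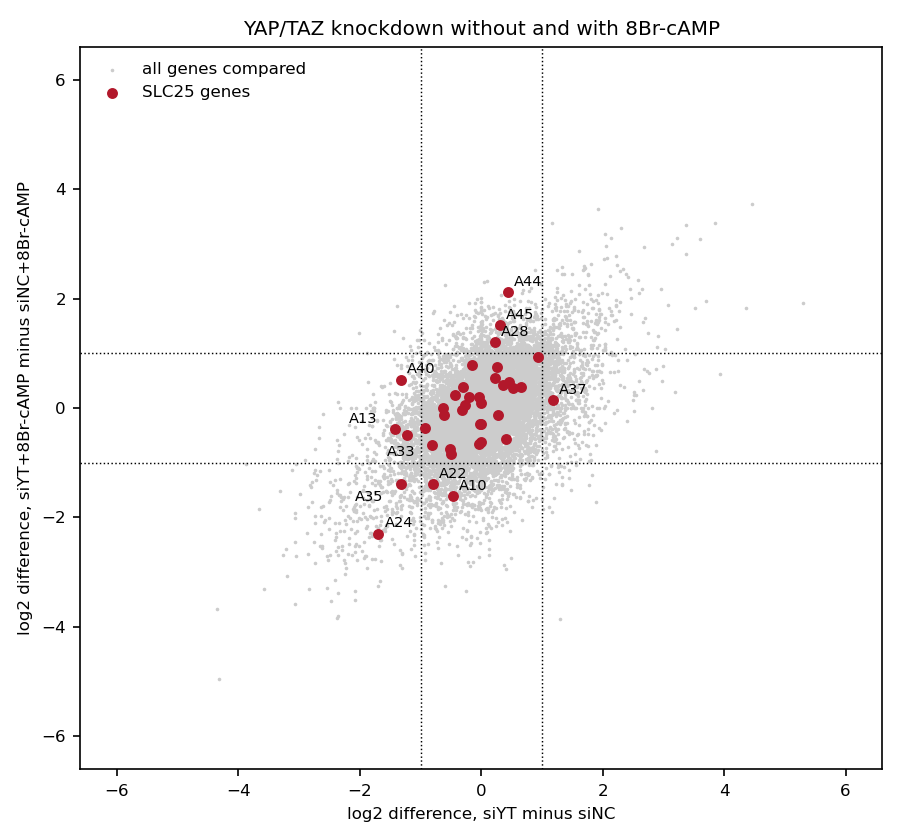
Log2 difference after YAP/TAZ knockdown without 8Br-cAMP (horizontal) and with it (vertical), for the SLC25 genes (red) over all 14427 genes compared (grey), with dotted lines at 2-fold and labels without the SLC25 prefix for genes past a line. SLC25A24 and SLC25A35 lie past 2-fold on both axes, and SLC25A40 and SLC25A44 lie far from the diagonal.

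The 8Br-cAMP comparisons asked which carriers respond to cyclic AMP. With control siRNA (siNC+8Br-cAMP minus siNC), 3 of the 38 carriers were at 2-fold in either direction, beside 9.56% of all genes. Of them 2 were at least 2-fold lower, SLC25A24 and SLC25A17, beside 5.22% of all genes. SLC25A37 alone was at least 2-fold higher, 1 of 38 beside 4.34%. After knockdown (siYT+8Br-cAMP minus siYT), 7 of the 38 were at 2-fold in either direction, beside 14.9% of all genes. SLC25A24 and SLC25A17 were at least 2-fold lower, 2 of 38 beside 9.88% of all genes. There 5 were at least 2-fold higher, beside 5.00%: SLC25A28, SLC25A51, SLC25A40, SLC25A44 and SLC25A25. The medians were 0.03 with control siRNA and 0.09 after knockdown, against 0 over all genes in each. At least 2-fold lower in both comparisons were thus 2 of 38, beside 2.08% of all genes, and higher in both were 0, beside 1.46%. By any amount 14 were higher in both, beside 26.7% of all genes, and 6 were lower in both, beside 28.8%. A further 16 went opposite ways, beside 30.2%. SLC25A17 at -1.19 and SLC25A37 at 1.11 were just inside the 2-fold lines with control siRNA, and SLC25A43 at -0.91 and SLC25A51 at 0.69 just outside. After knockdown SLC25A17 at -1.46 and SLC25A25 at 1.02 were just inside, and SLC25A22 at -0.87 and SLC25A11 at 0.93 just outside.

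**Figure D3:**
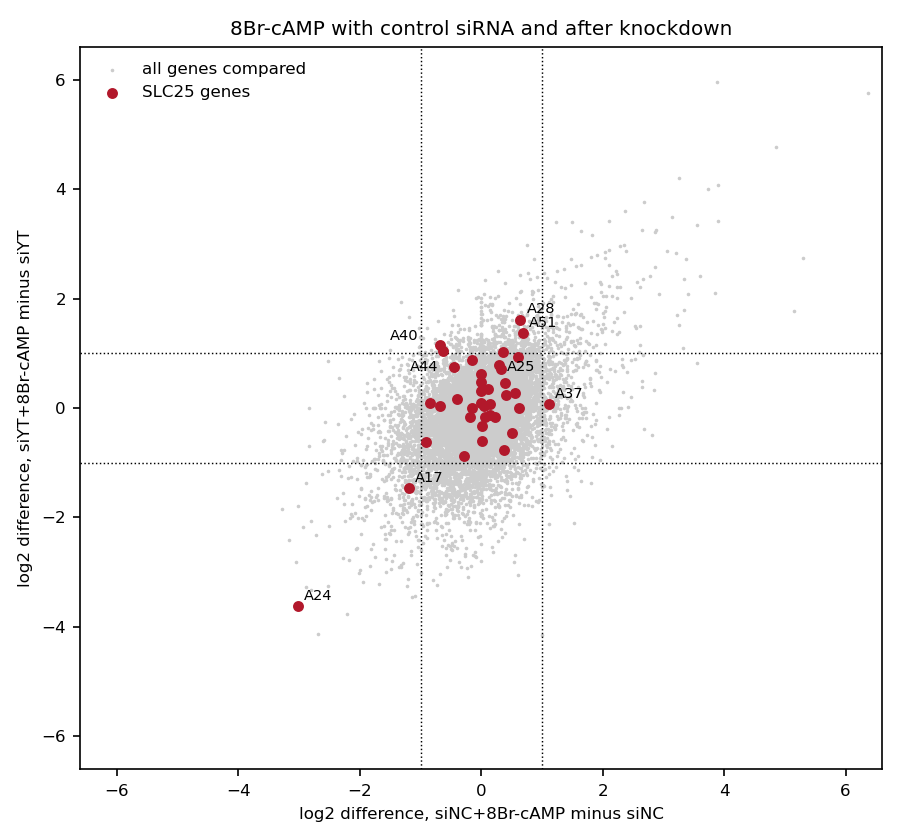
Log2 difference with 8Br-cAMP under control siRNA (horizontal) and after YAP/TAZ knockdown (vertical), drawn as in the plot of knockdown differences. SLC25A24 stands apart at -3.02 and -3.62, and SLC25A37, at 1.11 and 0.07, passes 2-fold on the horizontal axis alone.

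The difference of differences, knockdown with 8Br-cAMP minus knockdown without it, was at 2-fold for 6 of the 38 carriers and for 2157 of the 14427 genes compared. Its median was 0.11 over the carriers and -0.03 over all genes. It was positive for SLC25A40 (1.85), SLC25A44 (1.68), SLC25A45 (1.21) and SLC25A13 (1.04), 4 carriers beside 5.39% of all genes. It was negative for SLC25A10 (-1.13) and SLC25A37 (-1.04), 2 carriers beside 9.56%. SLC25A28 at 0.97 and SLC25A29 at -0.96 lay just below 2-fold.

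The nucleotide, phosphate and nucleotide cofactor carriers had 12 of 14 members above the floor. Adenine nucleotide translocators and the phosphate carrier together feed ATP synthase and export its product. Of these SLC25A4, SLC25A5 and SLC25A3 stayed within 2-fold by the probe sets used, and the translocator gene SLC25A6 was not analysed. SLC25A3, the phosphate carrier, read 41876 in siYT+8Br-cAMP and 25490 in siYT, against 36564 in siNC+8Br-cAMP and 29311 in siNC. SLC25A5, the translocator ANT2 of proliferating cells, read 18728 in siYT+8Br-cAMP and 13392 in siYT, against 20522 in siNC+8Br-cAMP and 20474 in siNC, so the siYT array was the lowest. SLC25A4, the translocator ANT1 of heart and muscle, was also lowest in siYT, with 1864 in siYT+8Br-cAMP, 1208 in siYT, 1858 in siNC+8Br-cAMP and 1865 in siNC. For SLC25A5 and SLC25A4 the log2 differences under knockdown were -0.61 and -0.63 without 8Br-cAMP and -0.13 and 0.00 with it. A second SLC25A4 probe set went the other way, with 141 in siYT+8Br-cAMP and 81.4 in siYT, against values below the floor in siNC+8Br-cAMP and siNC, at least 2.26-fold higher under knockdown with 8Br-cAMP. A second SLC25A3 probe set gave 0.65 for knockdown with and 0.09 without 8Br-cAMP, where the first gave 0.20 and -0.20.

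SLC25A24 has paralogs in SLC25A23 and SLC25A25, which also exchange ATP-magnesium for phosphate under control of calcium, and neither shared its pattern. SLC25A23 read 718 in siYT+8Br-cAMP and 699 in siYT, against 376 in siNC+8Br-cAMP and 366 in siNC. Both knockdown arrays were thus above both control arrays, by log2 differences of 0.93 and 0.94, and 8Br-cAMP made a difference of 0.04 in each background. A second SLC25A23 probe set gave 0.50 and 0.06 for knockdown without and with 8Br-cAMP, and 0.56 and 0.12 for 8Br-cAMP under control siRNA and after knockdown. SLC25A25 read 426 in siYT+8Br-cAMP and 210 in siYT, against 361 in siNC+8Br-cAMP and 282 in siNC, with the arrays given 8Br-cAMP highest.

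SLC25A17, a peroxisomal member of the family that carries coenzyme A, FAD and NAD, read 151 in siYT+8Br-cAMP against 416.5 in siYT, and 185 in siNC+8Br-cAMP against 422 in siNC. Its second probe set read 441 in siYT+8Br-cAMP against 166 in siYT, and 113 in siNC+8Br-cAMP against 187 in siNC. The probe sets thus went the same way with control siRNA and opposite ways after knockdown, where the log2 differences were -1.46 and 1.41. SLC25A51, the mitochondrial NAD carrier, read 1365 in siYT+8Br-cAMP against 528 in siYT, and 1049 in siNC+8Br-cAMP against 652 in siNC. Its second probe set also had the arrays with 8Br-cAMP highest, at 623 in siYT+8Br-cAMP against 129 in siYT and 500 in siNC+8Br-cAMP against 304 in siNC. By that probe set 8Br-cAMP made a log2 difference of 2.27 after knockdown and 0.72 with control siRNA.

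The pyrimidine nucleotide carriers SLC25A33 and SLC25A36 differed from each other. SLC25A33 read 343 in siYT+8Br-cAMP and 335 in siYT, against 486 in siNC+8Br-cAMP and 779 in siNC, so both knockdown arrays were lower. SLC25A36 read 3571 in siYT+8Br-cAMP and 4024 in siYT, against 2583 in siNC+8Br-cAMP and 2926 in siNC, so both were higher, by 0.47 and 0.46. Its 2 other probe sets with signal gave -0.78 and 0.58 with 8Br-cAMP. SLC25A16, linked to coenzyme A, differed by 0.65 and 0.39 under knockdown without and with 8Br-cAMP, by a probe set of the kind that may bind other transcripts. The 2 other SLC25A16 probe sets gave -0.92 and 0.32 without and 0.08 and 1.67 with 8Br-cAMP, so the 3 shared no direction without it. SLC25A42, a coenzyme A carrier, passed the floor in siNC+8Br-cAMP alone, at 95.9.

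Among the carboxylate carriers 5 of 6 members were above the floor. SLC25A1, the citrate carrier that exports acetyl units for lipid synthesis, read 1626 in siYT+8Br-cAMP and 1273 in siYT, against 1415 in siNC+8Br-cAMP and 1312 in siNC. All its log2 differences were within 0.35. SLC25A11, the oxoglutarate-malate exchanger, differed by 0.61 with 8Br-cAMP under control siRNA and 0.93 after knockdown, while its second probe set gave 0.26 and -0.19. SLC25A10, the dicarboxylate carrier, read 7.37 in siYT+8Br-cAMP, below the floor, and 106 in siYT, against 190 in siNC+8Br-cAMP and 147 in siNC. It was therefore at least 3.04-fold lower under knockdown with 8Br-cAMP and 1.39-fold lower without it.

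SLC25A35, whose substrate is not settled, read 66.2 in siYT+8Br-cAMP and 34.2 in siYT, against 174 in siNC+8Br-cAMP and 157 in siNC. Both knockdown arrays were near or below the floor, so it was 2.63-fold lower with 8Br-cAMP and at least 2.51-fold lower without it. A second SLC25A35 probe set, with 41.7 in siYT+8Br-cAMP and 49.6 in siYT, against 97.0 in siNC+8Br-cAMP and 64.1 in siNC, was also below the floor on both knockdown arrays. Its relative SLC25A34 read 68.1 in siYT+8Br-cAMP and 103 to 107 on the other 3 arrays.

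The members grouped as amino acid carriers had 9 of 11 above the floor. SLC25A13 (citrin), the calcium-stimulated aspartate-glutamate carrier of the malate-aspartate shuttle, read 1479 in siYT+8Br-cAMP and 803 in siYT, against 1937 in siNC+8Br-cAMP and 2159 in siNC. The siYT array was the lowest, 2.69-fold below siNC, and the 2 other SLC25A13 probe sets were also lower in siYT, by log2 differences of -0.84 and -0.43. With 8Br-cAMP the 3 probe sets gave -0.39, -1.70 and 0.87 for knockdown and so did not share a direction. Its paralog SLC25A12 (aralar) read 1488 in siYT+8Br-cAMP and 1263 in siYT, against 1159 in siNC+8Br-cAMP and 877 in siNC, with differences of 0.36 and 0.53. The second SLC25A12 probe set gave -0.64 and 0.24 and so went the other way with 8Br-cAMP.

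SLC25A44, which carries branched-chain amino acids, was highest with both treatments. It read 1635 in siYT+8Br-cAMP and 789 in siYT, against 377 in siNC+8Br-cAMP and 584 in siNC. It was 4.33-fold higher under knockdown with 8Br-cAMP and 1.35-fold higher without it. The second probe set was also highest in siYT+8Br-cAMP, at 905, with 249 in siYT, 616 in siNC+8Br-cAMP and 321 in siNC. It gave 0.55 for knockdown with 8Br-cAMP, where the first gave 2.12, and 1.86 for 8Br-cAMP after knockdown, where the first gave 1.05. SLC25A45, whose substrate was long unassigned, read 244 in siYT+8Br-cAMP and 145 in siYT, against 85.7 in siNC+8Br-cAMP and 117 in siNC, and was likewise highest with both treatments. The second SLC25A45 probe set passed the floor in siYT alone, at 89.6, and was below it in siYT+8Br-cAMP.

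SLC25A22, a glutamate-proton symporter, read 89.9 in siYT+8Br-cAMP and 164 in siYT, against 236 in siNC+8Br-cAMP and 286 in siNC, and was lower under knockdown by 2.63-fold with and 1.74-fold without 8Br-cAMP. SLC25A15, the ornithine carrier of the urea cycle, read 658 in siYT+8Br-cAMP and 588 in siYT, against 849 in siNC+8Br-cAMP and 1122 in siNC. Its differences under knockdown were -0.37 and -0.93, and its second probe set gave -0.44 and -1.50. SLC25A38, which brings in glycine for haem synthesis, read 542 in siYT+8Br-cAMP and 683 in siYT, against 971 in siNC+8Br-cAMP and 963 in siNC. Both knockdown arrays were lower for each of these 3 genes. SLC25A29, a carrier of basic amino acids, read 213 to 314. Its knockdown differences were -0.56 with and 0.41 without 8Br-cAMP, where a second probe set gave -0.65 and -0.57. SLC25A48, listed in this group though an amino acid substrate is not settled for it, passed the floor in siYT+8Br-cAMP alone, at 66.5.

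All 7 carriers of fatty acids, one-carbon units, glutathione and iron were above the floor on every array. SLC25A37 and SLC25A28 are the mitoferrins, which import iron for haem and iron-sulphur clusters. SLC25A37 read 8871 in siYT+8Br-cAMP and 8454 in siYT, against 8053 in siNC+8Br-cAMP and 3730 in siNC, so the untreated control array stood below the other 3. Under knockdown it was 1.10-fold higher in the presence of 8Br-cAMP and 2.27-fold higher in its absence, and with 8Br-cAMP it was 2.16-fold higher under control siRNA and 1.05-fold higher after knockdown. This gene had 10 probe sets, and 9 were higher in siYT than in siNC while 1 was at the floor on both arrays. Likewise 8 were higher in siNC+8Br-cAMP than in siNC, with 2 at the floor on both. Under knockdown with 8Br-cAMP 7 were higher and 2 lower, and with 8Br-cAMP after knockdown 6 were higher and 4 lower, so the probe sets shared no direction on the doubly treated array.

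SLC25A28 read 1151 in siYT+8Br-cAMP and 376 in siYT, against 501 in siNC+8Br-cAMP and 321 in siNC, by a probe set whose suffix marks it as shared between transcripts. It was highest with both treatments, 2.30-fold above siNC+8Br-cAMP and 3.06-fold above siYT. Its second probe set read 471 in siYT+8Br-cAMP and 387 in siYT, against 601 in siNC+8Br-cAMP and 609 in siNC, and so was lower under knockdown by -0.35 with and -0.65 without 8Br-cAMP.

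SLC25A40 and SLC25A39 are paralogs that carry glutathione. SLC25A40 read 1694 in siYT+8Br-cAMP and 758 in siYT, against 1183 in siNC+8Br-cAMP and 1902 in siNC. Under knockdown it was 1.43-fold higher in the presence of 8Br-cAMP and 2.51-fold lower in its absence. Its second probe set was lower in both, by -0.44 without and -0.90 with 8Br-cAMP. SLC25A39 read 3490 in siYT+8Br-cAMP and 2022 in siYT, against 2064 in siNC+8Br-cAMP and 1692 in siNC, with every log2 difference positive, from 0.26 to 0.79.

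SLC25A32, the carrier for folate and FAD, was lowest in siNC+8Br-cAMP, with 2259 in siYT+8Br-cAMP, 2106 in siYT, 1304 in siNC+8Br-cAMP and 2330 in siNC. SLC25A26, the importer of S-adenosylmethionine, read 1101 in siYT+8Br-cAMP and 885 in siYT, against 755 in siNC+8Br-cAMP and 760 in siNC. SLC25A20, the carnitine-acylcarnitine carrier of fatty acid oxidation, read 577 to 702 on the 4 arrays.

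Of the members related to uncoupling proteins, SLC25A30 was lower on both knockdown arrays, with 826 in siYT+8Br-cAMP and 830 in siYT, against 1320 in siNC+8Br-cAMP and 1462 in siNC. SLC25A14 differed by 0.42 and 0.36 under knockdown with and without 8Br-cAMP, and by 0.48 and 0.59 on a second probe set, and SLC25A27 read at most 92.5. SLC25A46, an outer membrane protein of mitochondrial dynamics, differed by -0.74 and -0.52, while its second probe set gave -0.42 and 0.79. SLC25A43, of unassigned substrate, was lower with 8Br-cAMP, at 900 in siYT+8Br-cAMP against 1386 in siYT, and 921 in siNC+8Br-cAMP against 1727 in siNC.

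**Figure D4:**
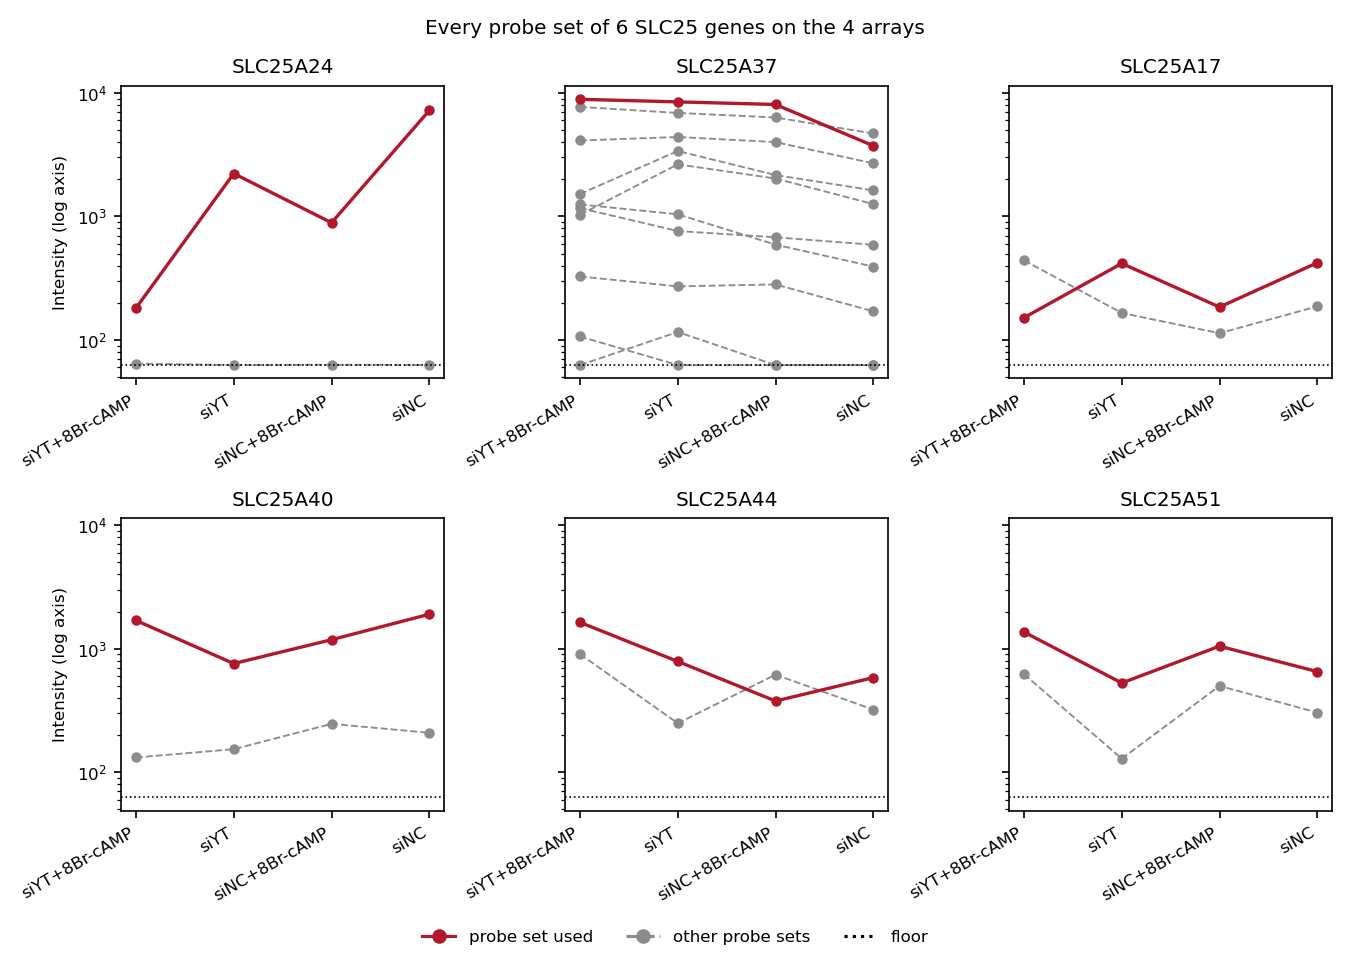
Intensity (log axis) of every probe set of 6 carriers on the 4 arrays. The red line is the probe set used, grey dashed lines are the others, values below the floor (dotted) are drawn at it, and lines join the values of 1 probe set only to guide the eye. SLC25A37 has its lowest red value in siNC (3730), and the SLC25A17 probe sets cross, at 151 and 441 in siYT+8Br-cAMP.

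Agreement between probe sets limits these sizes. The 4 comparisons gave 23 values at 2-fold in 14 carriers. For 17 of them another probe set of the gene was above the floor on at least 1 of the arrays compared. All such probe sets went the same way for 11 of the 17, and at least 1 went the opposite way for 6. Of those 6, 3 belong to SLC25A24, whose other probe set lay next to the floor. When the other probe set had to exceed 2 times the floor, a rule chosen after these values were seen, 12 values remained, 9 with the same direction and 3 with an opposite one, namely SLC25A17 and SLC25A40 for 8Br-cAMP after knockdown and SLC25A28 for knockdown with 8Br-cAMP.

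Genes that work beside the carriers were listed by function. Each was read by 1 probe set, chosen as for the carriers, and agreement with its other probe sets was not checked. Of 4 measured relatives under other symbols, MTCH1, an outer membrane insertase of the same fold, was 2.26-fold higher with 8Br-cAMP after knockdown and 2.18-fold higher with control siRNA. UCP2, an uncoupling protein relative, was at least 2.03-fold lower under knockdown with 8Br-cAMP. That is 1 of 4 at least 2-fold higher in both 8Br-cAMP comparisons, beside 1.46% of all genes. Under knockdown with 8Br-cAMP 1 of 4 was at 2-fold, beside 16.2%. The import machinery that inserts carriers (13 genes) and the outer membrane channels (4 genes) had 0 genes at 2-fold the same way in both comparisons of either factor. Of all genes 1.46% to 2.81% were, by factor and direction. In single comparisons 5 import genes were at 2-fold. Under knockdown with 8Br-cAMP they were TIMM8B (-1.33) and TIMM29 (-1.27), 2 of 13 beside 16.2% of all genes. Under knockdown without it TIMM13 (-1.37) was, 1 of 13 beside 13.3%. With 8Br-cAMP after knockdown they were TOMM70 (1.24), TIMM29 (-1.14) and TIMM10B (-1.29), 3 of 13 beside 14.9%. With control siRNA 0 were, beside 9.56%. Genes of these lists at 2-fold in 1 comparison alone, or in opposite directions, are named after their values were seen.

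Of 16 other inner membrane transporters, SFXN1, the sideroflexin that imports serine, read 2527 in siYT+8Br-cAMP and 1277 in siYT, against 293 in siNC+8Br-cAMP and 290 in siNC. Knockdown arrays were 8.62-fold and 4.40-fold higher. Its relative SFXN2 was 3.09-fold lower under knockdown with and 4.95-fold lower without 8Br-cAMP. MPC1, a subunit of the mitochondrial pyruvate carrier, was 2.42-fold higher with 8Br-cAMP after knockdown and 2.18-fold with control siRNA. In all, 7 of the 16 were at 2-fold under knockdown with 8Br-cAMP, 2 higher and 5 lower, beside 16.2% of all genes. Without it 3 were, 2 higher and 1 lower, beside 13.3%. With 8Br-cAMP 5 were at 2-fold after knockdown, 2 higher and 3 lower, beside 14.9%. With control siRNA 1 was, which was MPC1, beside 9.56%. In both knockdown comparisons 1 was at least 2-fold higher and 1 lower, beside 2.38% and 2.81% of all genes. In both 8Br-cAMP comparisons 1 was higher and 0 were lower, beside 1.46% and 2.08%.

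Of 21 enzymes that use carrier substrates, SHMT2 passed the 2-fold line downward for knockdown with and without 8Br-cAMP (-1.85 and -1.47). MTHFD2 did so for 8Br-cAMP after knockdown and with control siRNA (-1.66 and -1.14). Each gene was also lower for the other factor. With 8Br-cAMP SHMT2 differed by -1.33 after knockdown and -0.95 with control siRNA. Under knockdown MTHFD2 differed by -1.45 with and -0.93 without 8Br-cAMP. The values of -0.95 and -0.93 fell just short of 2-fold. SHMT2 and MTHFD2 are consecutive mitochondrial enzymes of one-carbon metabolism. SHMT2 read 1024 in siYT+8Br-cAMP and 2570 in siYT, against 3685 in siNC+8Br-cAMP and 7128 in siNC. MTHFD2 read 3733 in siYT+8Br-cAMP and 11785 in siYT, against 10169 in siNC+8Br-cAMP and 22378 in siNC. For both genes the array with both treatments was the lowest and siNC the highest, the order also seen for SLC25A24 at those ends. GOT1, the cytosolic aspartate aminotransferase of the malate-aspartate shuttle, read 4505 in siYT+8Br-cAMP and 1504 in siYT, against 2064 in siNC+8Br-cAMP and 3377 in siNC. It was 2.18-fold higher under knockdown with and 2.24-fold lower without 8Br-cAMP, and 2.99-fold higher with 8Br-cAMP after knockdown. At 2-fold in 1 comparison each were IDH2 (-1.30, knockdown without 8Br-cAMP), CPT1A (1.08, 8Br-cAMP with control siRNA) and MDH1 (1.31, 8Br-cAMP after knockdown). In all, 3 of the 21 were at 2-fold under knockdown without 8Br-cAMP, beside 13.3% of all genes, and 3 with it, beside 16.2%. With 8Br-cAMP 2 were at 2-fold under control siRNA, beside 9.56%, and 4 after knockdown, beside 14.9%. The list's median was -0.67 under knockdown without and -0.18 with 8Br-cAMP.

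Of 8 regulators of mitochondrial biogenesis, PPARGC1A was 2.54-fold and 2.20-fold higher under knockdown with and without 8Br-cAMP. MYC was lower in both, 2.86-fold and 2.98-fold. TFAM, which packages and transcribes mitochondrial DNA, read 312 in siYT+8Br-cAMP and 827 in siYT, against 898 in siNC+8Br-cAMP and 1603 in siNC. It was 2.88-fold lower under knockdown with 8Br-cAMP and 1.94-fold lower without it, so only the first reached 2-fold. GABPA, a subunit of a factor that drives nuclear genes for mitochondrial proteins, read 141 in siYT+8Br-cAMP and 1195 in siYT, against 507 in siNC+8Br-cAMP and 591 in siNC. It was 3.61-fold lower under knockdown with and 2.02-fold higher without 8Br-cAMP, and 8.50-fold lower with 8Br-cAMP after knockdown. PPARGC1B was lower with 8Br-cAMP, at least 2.36-fold after knockdown and 2.42-fold with control siRNA. In all, 4 of the 8 were at 2-fold under knockdown with 8Br-cAMP, beside 16.2% of all genes, and 3 without it, beside 13.3%. With 8Br-cAMP 3 were at 2-fold after knockdown, beside 14.9%, and 1 under control siRNA, beside 9.56%. In both knockdown comparisons 1 of the 8 was at least 2-fold higher and 1 lower, beside 2.38% and 2.81% of all genes. In both 8Br-cAMP comparisons 0 were higher and 1 was lower, beside 1.46% and 2.08%. The median over the regulators was -0.13 under knockdown with and 0.14 without 8Br-cAMP.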

How the data were processed

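RNA from 4 cultures of KGN cells, 1 per group, was hybridised to HG-U133 Plus 2.0 arrays. The deposited intensity values are on a linear scale. The submitters' processing notes name RMA in Affymetrix Expression Console, which gives log2 values, but the trimmed mean (2% cut at each end) was 499.9 on every array and the lowest value was 0.0806, so the summary method is not settled. No count depth exists for arrays, and their number limits the precision.

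Of 54675 probe sets, 41097 had 1 symbol in the platform annotation, 1801 several and 11777 none. Values below 62.6, the median of all values, were set to it and log2 was taken. Each gene kept the probe set with the highest mean log2 value, and 14427 of 19775 genes passed the floor on 1 array or more and entered the comparisons. Differences were called at 2-fold with no test. Values on all arrays were due for carriers at 2-fold the same way in both comparisons of a factor or in the difference of differences, and for the 12 with the largest difference among those above the floor on all arrays, 14 genes in all. Others are named by role, and list genes if at 2-fold in both comparisons of a factor. Members and lists were chosen with earlier results of these data known. Alternatives changed the floor, the threshold, the probe set rule and the normalization (cyclic loess and quantile, limma 3.58.1 in R 4.3.3). Calculations used Python 3.11.15, pandas 2.3.3 and numpy 2.4.6, tested on simulated data. Promoters were the RefSeq sequences of GRCh38.p14.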

Additional observations from a re-analysis of the deposited data

Results flagged for a closer look

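Of the 38 carriers, 5 went opposite ways in the 2 comparisons of a factor with a difference of differences of at least 2-fold, beside 11.9% of all genes compared. With 1 array per group the difference was not tested for any of them. SLC25A40 had a difference of differences of 1.85: under knockdown its log2 difference was 0.52 with 8Br-cAMP and -1.33 without it, and with 8Br-cAMP it was 1.16 after knockdown and -0.69 under control siRNA. Its second probe set was lower under knockdown both with and without 8Br-cAMP, at -0.90 and -0.44. SLC25A44 had 1.68, with 8Br-cAMP differences of 1.05 after knockdown and -0.63 under control siRNA, and its second probe set was positive in both, at 1.86 and 0.94. SLC25A45 had 1.21, with 0.75 after knockdown and -0.45 under control siRNA. Another probe set, above the floor in siYT alone, gave -0.52 after knockdown. SLC25A13 had 1.04, with 0.88 after knockdown and -0.16 under control siRNA. Of its 2 other probe sets, 1 turned the signs round, with -0.44 and 0.42, and the other was positive in both, at 1.40 and 0.10. SLC25A10 had -1.13, with -0.76 after knockdown, against the floor, and 0.37 under control siRNA, and it had 1 probe set.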

How the results depend on the processing

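No paired analysis was possible because each group holds 1 array, and no array could be left out for the same reason. Counts of carriers at 2-fold were 6 for siYT minus siNC, 7 for siYT+8Br-cAMP minus siNC+8Br-cAMP, 3 for siNC+8Br-cAMP minus siNC, 7 for siYT+8Br-cAMP minus siYT and 6 for the difference of differences. At 1.5-fold these became 13, 15, 12, 17 and 17. The share of all genes called was not taken under this or the other alternatives, so a changed count was not set against all genes. With no floor all 45 carriers were counted in place of 38, and the last 4 counts became 13, 10, 15 and 12. The 7 added had been below the floor on every array. When the probe sets of a gene were averaged the counts were 2 for siYT minus siNC, 1 for siNC+8Br-cAMP minus siNC, 4 for siYT+8Br-cAMP minus siYT and 3 for the difference of differences. A floor at the 75th percentile (389) left 3 for siYT+8Br-cAMP minus siNC+8Br-cAMP. This floor, and the removal of shared probe sets, each left some of the 38 carriers out of the count. The 2 carriers lower in both knockdown comparisons became 1 with that floor, 0 with the mean over probe sets and 4 at 1.5-fold. The 2 lower in both 8Br-cAMP comparisons became 4 with no floor and 1 with that floor, with the mean over probe sets and without shared probe sets. Higher in both were 0, and 1 for knockdown at 1.5-fold, 1 for 8Br-cAMP with no floor and 3 for 8Br-cAMP at 1.5-fold. The median for siYT minus siNC, -0.09, was -0.36 without shared probe sets, -0.18 after cyclic loess and -0.20 after quantile normalization. For siYT+8Br-cAMP minus siNC+8Br-cAMP, 0.03, it was 0.13 with the higher floor and -0.21 without shared probe sets. For siYT+8Br-cAMP minus siYT, 0.09, it was 0.24 with no floor, 0.20 after cyclic loess and 0.21 after quantile normalization. The direction turned for SLC25A17 in siYT+8Br-cAMP minus siYT (1.41 without shared probe sets) and for SLC25A28 in siYT+8Br-cAMP minus siNC+8Br-cAMP (-0.35 without shared probe sets and -0.25 after quantile normalization). Without shared probe sets another probe set of each gene stood for it, and 1.41 and -0.35 are the values of those probe sets. Causes of the other changes, among them the turn after quantile normalization, were not tested. Of 470 values of single named genes under the alternatives, 418 moved by less than the probe set SD and 49 by more. The other 3, all at 2-fold before, changed direction. Of 100 values of the main counts and medians, 68 were little changed and 32 moved. A choice of probe set by the mean deposited value, added after seeing the data and part of both totals, changed no count by over 1.5 times.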
